A study of Homo sapiens with 4 samples.

Results

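The synaptic vesicle release machinery, as examined here, is a set of 40 genes whose products dock, prime, fuse and retrieve neurotransmitter vesicles. Its members were the probe sets of the array whose annotation gave 1 gene symbol and whose symbol was on the list. All 40 genes were found, through 96 of the 54613 tested probe sets. The other tested probe sets with 1 symbol bring the genes named on the array to 19775. Cells of SH-SY5Y, a human neuroblastoma line of sympathetic origin, were profiled 72 h after small interfering RNA against TSPAN8, a cell-surface tetraspanin, had been applied with a self-delivering (Accell) system (TSPAN8 knockdown, 2 arrays). Cells labelled transfection control (2 arrays) were kept under control conditions for the same 72 h. What the control cells were given, the sequence of the small interfering RNA and whether the replicates of a group were grown separately are not given in the sources used here, so the p-values speak only to the spread among these 4 samples, and that spread may be technical. All 4 samples are of 1 cell line, and in such bulk RNA fewer cells of a type and less RNA per cell cannot be told apart.

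As background, a vesicle filled with transmitter is tethered at the active zone by large scaffold proteins and by RAB3 on its surface. Priming factors then let the vesicle SNARE VAMP, also called synaptobrevin, coil around the plasma membrane SNAREs syntaxin 1 and SNAP25. Calcium entering with an action potential binds synaptotagmin and fusion follows, after which NSF and its SNAP adaptors pull the SNARE complex apart and clathrin adaptors with dynamin take the membrane back. Neuroblastoma cells of this kind store catecholamines in dense-core granules, which are released with much of the same machinery.

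TSPAN8 itself was at log2 signals of 6.25 and 6.35 on the knockdown arrays, against 7.52 and 7.62 on the control arrays (log2 difference -1.27 ± 0.062, SE; limma, adjusted p = 0.0026). It was the only one of the 54613 probe sets to pass an adjusted p of 0.05, a background of 0.00183%. Without knockdown replicate 2 the limma fit put 1026 probe sets (1.88%) past that threshold, and without knockdown replicate 1 it put 25 (0.0458%). The array medians lay between 6.58 and 6.61 and the upper quartiles between 7.93 and 7.96. The cell type was checked with 8 sympathetic neuroblast markers. Far above the upper quartile lay ISL1, GATA3, STMN2, ELAVL4, PHOX2A and DBH, HAND2 lay between the median and the upper quartile, and TH below the median. DBH, the enzyme that makes noradrenaline, had 11.66 and 12.02 on the knockdown arrays, against 12.19 and 12.18 on the control arrays, with knockdown replicate 1 apart from the other 3 arrays.

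Promoter sequence is shown for 4 members: PCLO and STX1A, which had the smallest p among the members, SYT4, which had the highest signal, and SYN1, whose window holds a textbook regulatory element of neuronal genes. RefSeq (GRCh38.p14) windows of 300 bases, from 250 bases before to 50 bases after the transcription start, were matched for 33 of the 40 members. Capitals mark 3 motifs searched on both strands, which overlapped at 0 bases in these 4 windows. The motifs were the GC box GGGCGG, the cyclic AMP response element TGACGTCA, and TTCAGCACC, the opening stretch of the element bound by the repressor REST, which keeps neuronal genes silent in other cells.
PCLO, chr7:83162835-83163134, minus strand: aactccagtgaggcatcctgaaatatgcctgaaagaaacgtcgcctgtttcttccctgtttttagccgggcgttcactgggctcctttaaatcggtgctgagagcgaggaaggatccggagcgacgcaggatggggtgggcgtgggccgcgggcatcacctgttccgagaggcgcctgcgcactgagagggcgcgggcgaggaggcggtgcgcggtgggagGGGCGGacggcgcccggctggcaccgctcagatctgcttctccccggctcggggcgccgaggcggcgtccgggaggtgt
STX1A, chr7:73719620-73719919, minus strand: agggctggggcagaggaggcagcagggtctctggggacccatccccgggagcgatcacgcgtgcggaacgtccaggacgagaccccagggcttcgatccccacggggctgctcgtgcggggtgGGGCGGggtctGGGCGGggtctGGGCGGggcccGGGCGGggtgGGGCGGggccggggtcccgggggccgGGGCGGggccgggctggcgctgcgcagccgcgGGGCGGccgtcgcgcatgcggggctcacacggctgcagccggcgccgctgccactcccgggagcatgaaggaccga
SYT4, chr18:43277441-43277740, minus strand: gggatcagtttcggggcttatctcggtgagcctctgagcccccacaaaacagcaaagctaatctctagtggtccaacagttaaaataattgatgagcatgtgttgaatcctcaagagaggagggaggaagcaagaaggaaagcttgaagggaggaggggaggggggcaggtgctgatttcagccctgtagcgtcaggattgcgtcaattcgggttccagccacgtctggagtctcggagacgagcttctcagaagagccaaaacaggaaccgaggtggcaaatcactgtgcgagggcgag
SYN1, chrX:47619808-47620107, minus strand: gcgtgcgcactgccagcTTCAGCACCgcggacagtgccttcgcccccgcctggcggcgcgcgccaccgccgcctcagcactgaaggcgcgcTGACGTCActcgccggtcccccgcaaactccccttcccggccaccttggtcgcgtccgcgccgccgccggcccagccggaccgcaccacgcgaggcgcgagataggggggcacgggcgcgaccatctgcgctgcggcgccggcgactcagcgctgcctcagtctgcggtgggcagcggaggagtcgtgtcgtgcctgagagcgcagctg

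The STX1A window carries 7 GC boxes, the PCLO window 1, and the windows of SYT4 and SYN1 none. The GC content was 79.3% for STX1A, 67.0% for PCLO, 53.3% for SYT4 and 75.3% for SYN1. Of the 33 members with a window, 26 (78.8%) had a GC box in at least 1 of their windows. Counted by window, it was 31 of 47 (66.0%) for the members and 45.0% of all 35116 RefSeq windows. The 9-base opening stretch of the element bound by REST was in 2 of the 47 windows (4.26%), those of SYN1 and UNC13A, against 0.376% of all windows. The rest of that element was not searched. The cyclic AMP response element was in 1 window (2.13%), that of SYN1, against 1.85%. A match is a description of these letters and not evidence of binding.

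**Figure D1:**
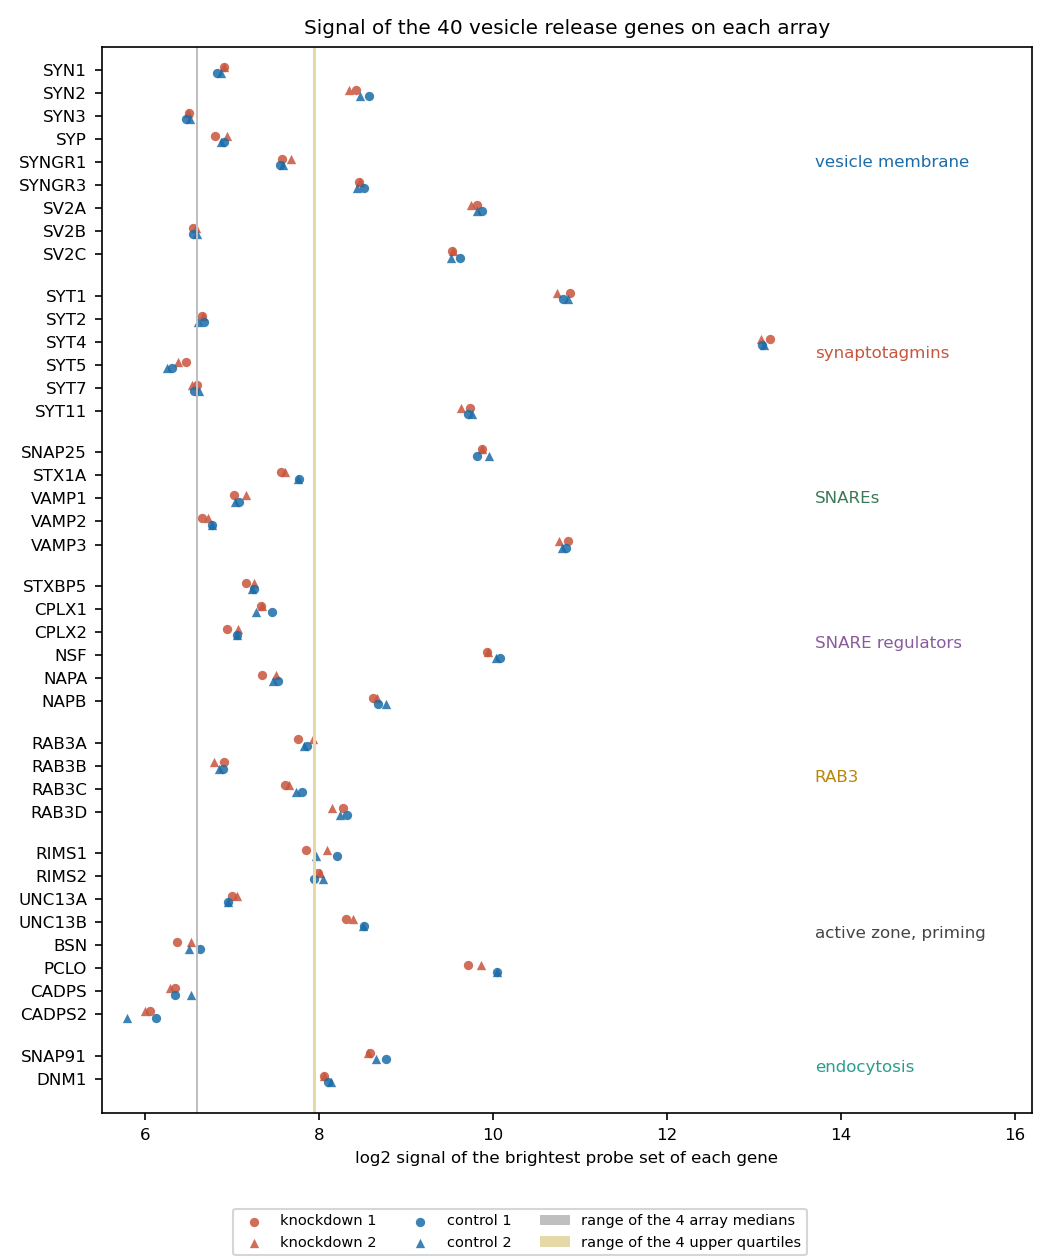
Log2 signal of the brightest probe set of each of the 40 genes (x axis) on the 4 arrays, grouped by role. Knockdown points are drawn above control points, and the bands mark the ranges of the array medians and upper quartiles. The values run from 5.79 for CADPS2 to 13.19 for SYT4.

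Each gene was represented by its brightest probe set, the one with the highest mean over the 4 arrays. On both control arrays, 33 of the 40 genes lay above the array median, 17 of them above the upper quartile, and 4 at or below the median; the other 3 lay on both sides of it. A signal also depends on how well the probes bind, so these positions place probe sets on the array and do not rank transcripts against each other. No detection calls were used, and a signal near the median may be background.

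None of the 96 member probe sets passed the threshold (limma, smallest adjusted p = 0.58). At an unadjusted p under 0.05, 5 were lower and 3 higher in knockdown cells. Over the whole array the shares were 4.12% lower and 3.72% higher, against 5.21% and 3.12% of the member probe sets, so these counts were near the background. The groups did not overlap for 21 member probe sets that were lower (21.9%, against 19.8% of all) and 11 that were higher (11.5%, against 17.7%). Without knockdown replicate 2 the counts were 9 lower (9.38%, against 6.30% of all probe sets in that fit) and 5 higher (5.21%, against 6.09%), with 1 past the threshold (1.04%, against 1.88%). Which array was left out changed the count of higher probe sets, and such a fit takes the spread of the remaining array from the other pair. With 2 arrays a group, an exact permutation test of 1 probe set could not go below a two-sided p of 0.333.

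Among vesicle membrane proteins, 9 genes, none had an unadjusted p under 0.05. SV2A, a transporter-like glycoprotein found on nearly all synaptic vesicles, had the highest signal of the group, with 9.82 and 9.75 on the knockdown arrays, against 9.87 and 9.82 on the control arrays. The knockdown arrays were the 2 lower ones, by little (-0.060 ± 0.055, SE; limma, adjusted p = 0.84). SYN2, a synapsin that ties vesicles to one another in the reserve pool, had 8.42 and 8.34 on the knockdown arrays, against 8.57 and 8.47 on the control arrays. Its groups did not overlap, and the difference was -0.14 ± 0.060 (SE; limma, adjusted p = 0.64), with a 95% interval of -0.28 to 0.0023. The other 4 probe sets of SYN2 differed by -0.026, -0.010, -0.0059 and 0.034, so the shift of the brightest one was not seen in the rest.

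The remaining vesicle membrane genes had intervals that all included 0. SYN1, the synapsin whose promoter is printed above, had 6.91 and 6.90 on the knockdown arrays, against 6.82 and 6.87 on the control arrays, a difference of 0.058 that its second probe set did not share (-0.0025). SYN3, another synapsin, differed by 0.0040. SYP, which encodes the abundant vesicle protein synaptophysin, stood at 6.80 and 6.94 in knockdown cells and at 6.91 and 6.87 in control cells, so that its groups overlapped. The synaptogyrins, relatives of synaptophysin, differed by 0.063 (SYNGR1) and -0.012 (SYNGR3). SV2B differed by -0.0060, with signals near the array median. SV2C, another form of the same glycoprotein, had 9.53 and 9.54 on the knockdown arrays, against 9.62 and 9.52 on the control arrays, with overlap. Of the 9 genes, 6 lay below control, a count that includes SYNGR3, which turned positive after a second quantile normalization; SYN3 turned negative under that setting and under median centring.

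Synaptotagmins, which sense calcium or, in some forms, traffic with vesicles without binding it, gave the brightest signal and the only gene above control at an unadjusted p under 0.05. SYT4, a form prominent on dense-core vesicles, had 13.19 and 13.08 on the knockdown arrays, against 13.10 and 13.12 on the control arrays. The groups overlapped, and the difference was 0.029 ± 0.058 (SE), with a 95% interval of -0.11 to 0.16 (limma, adjusted p = 0.95). SYT5 had 6.47 and 6.38 on the knockdown arrays, against 6.30 and 6.25 on the control arrays. Both knockdown arrays were the higher ones, but all 4 values were below the array medians. The difference was 0.15 ± 0.057 (SE; unadjusted p = 0.032, limma, adjusted p = 0.62), and the second probe set, which shares the sign, was at 0.097. After median centring the unadjusted p was 0.055.

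SYT1, the fast calcium sensor of evoked release, had 10.89 and 10.73 on the knockdown arrays, against 10.81 and 10.87 on the control arrays. Knockdown replicate 1 was the highest and knockdown replicate 2 the lowest of the 4, a difference of -0.028 with an interval of -0.18 to 0.12. Its second probe set showed 10.62 and 10.39 in knockdown cells, against 10.37 and 10.50 in control cells. SYT11, a form that does not bind calcium, had 9.73 and 9.63 on the knockdown arrays, against 9.72 and 9.75 on the control arrays (-0.054), and its other 2 probe sets were also below control. SYT2, a fast sensor of hindbrain and neuromuscular synapses, differed by 0.022. SYT7, a slow, high-affinity sensor, differed by -0.027, with 5 probe sets between -0.10 and 0.11 and all of them near or below the array median. Over the group, 3 of 6 genes were above and 3 below control.

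Of the 5 SNARE genes, STX1A was the one at an unadjusted p under 0.05. STX1A encodes syntaxin 1A, the plasma membrane SNARE that binds VAMP and SNAP25. It had 7.56 and 7.61 on the knockdown arrays, against 7.77 and 7.76 on the control arrays. The 2 knockdown arrays were lower than both control arrays, by more than the distance within either pair. The difference was -0.18 ± 0.052 (SE), with a 95% interval of -0.30 to -0.060, which corresponds to 88.3% of the control signal (unadjusted p = 0.0089, limma, adjusted p = 0.60). A single probe set of the _s_at kind, a class that can bind more than 1 transcript, represents the gene.

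SNAP25, the other plasma membrane SNARE, had 9.88 and 9.88 on the knockdown arrays, against 9.81 and 9.96 on the control arrays. The control arrays lay on both sides of the knockdown arrays, and the difference was -0.0060, with an interval of -0.15 to 0.14. Its 2 dimmer probe sets were at -0.13 and -0.046. VAMP3, the widely expressed cellubrevin, had 10.86 and 10.76 on the knockdown arrays, against 10.84 and 10.80 on the control arrays, with the control values inside the knockdown range (-0.013). VAMP2, the main synaptic vesicle SNARE of the brain, had 6.65 and 6.72 on the knockdown arrays, against 6.76 and 6.77 on the control arrays. Its groups did not overlap, and its 3 probe sets were all below control (-0.078, -0.038 and -0.048), at unadjusted p from 0.18 to 0.60 (limma). The brightest was just above the array medians and the other 2 below them on all 4 arrays, where a signal may be background. VAMP1, its relative in motor and sensory neurons, differed by 0.031. With 4 of 5 genes below control, the group's median was -0.013; SNAP25 and VAMP3 turned positive after a second quantile normalization.

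The regulators of SNARE assembly and disassembly all had brightest probe sets below control, 6 of 6, though none at an unadjusted p under 0.05. Below control lay 55.6% of all genes. Of the 13 probe sets of this group, 3 were above control. With 1 array left out, STXBP5, CPLX1, CPLX2 and NAPA turned positive in at least 1 fit. NSF, the ATPase that takes used SNARE complexes apart, had 9.93 and 9.94 on the knockdown arrays, against 10.08 and 10.03 on the control arrays. Both knockdown arrays lay below both control arrays (-0.12 ± 0.052, SE; 95% interval -0.24 to 0.0032; limma, adjusted p = 0.64). The other 2 NSF probe sets, near or below the array median, differed by 0.010 and -0.057. NAPA and NAPB encode the alpha and beta SNAP adaptors that recruit NSF, and they differed by -0.077 and -0.080, with overlap for NAPA and none for NAPB (8.62 and 8.67 on the knockdown arrays, against 8.68 and 8.77 on the control arrays). The complexins, small proteins that clamp and then promote fusion, differed by -0.022 (CPLX1) and -0.047 (CPLX2).

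STXBP5, which encodes tomosyn, an inhibitor that occupies syntaxin in place of VAMP, gave conflicting probe sets. The brightest had 7.16 and 7.25 on the knockdown arrays, against 7.25 and 7.23 on the control arrays (-0.041). A second one had 7.04 and 6.92 on the knockdown arrays, against 6.74 and 6.87 on the control arrays, a difference of 0.17 (unadjusted p = 0.035, limma, adjusted p = 0.63). The groups did not overlap for this second probe set alone, and the last of the 3 was at -0.026.

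RAB3 proteins are small GTPases that mark vesicles ready to dock. RAB3D, found on secretory granules of many cells, had 8.28 and 8.15 on the knockdown arrays, against 8.33 and 8.24 on the control arrays, with overlap (-0.067 ± 0.064, SE; limma, adjusted p = 0.85). RAB3C was the only member with probe sets at an unadjusted p under 0.05 in both directions. Its brightest probe set had 7.60 and 7.65 on the knockdown arrays, against 7.80 and 7.73 on the control arrays (-0.14 ± 0.055, SE; unadjusted p = 0.037, limma, adjusted p = 0.63), with an unadjusted p of 0.054 after a second quantile normalization. Another had 6.41 and 6.22 on the knockdown arrays, against 6.17 and 6.10 on the control arrays (0.18 ± 0.071, SE; unadjusted p = 0.038, limma, adjusted p = 0.63). Neither pair of groups overlapped, so the 2 probe sets placed the gene on opposite sides of control. The one above control, of the _s_at kind, lay below the array medians on all 4 arrays, where a signal may be background. The other 2 probe sets were at 0.068 and -0.044.

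RAB3A, the main form at brain synapses, had 7.76 and 7.93 on the knockdown arrays, against 7.86 and 7.83 on the control arrays. The control values lay between the 2 knockdown values (-0.0034, interval -0.16 to 0.15). RAB3B, a form of endocrine and some inhibitory cells, differed by -0.024 at its brightest probe set and by 0.0042 to 0.10 at its other 4. All 4 brightest RAB3 probe sets were thus below control, but RAB3A turned positive after a second quantile normalization, and 6 of the 12 RAB3 probe sets were above control.

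**Figure D2:**
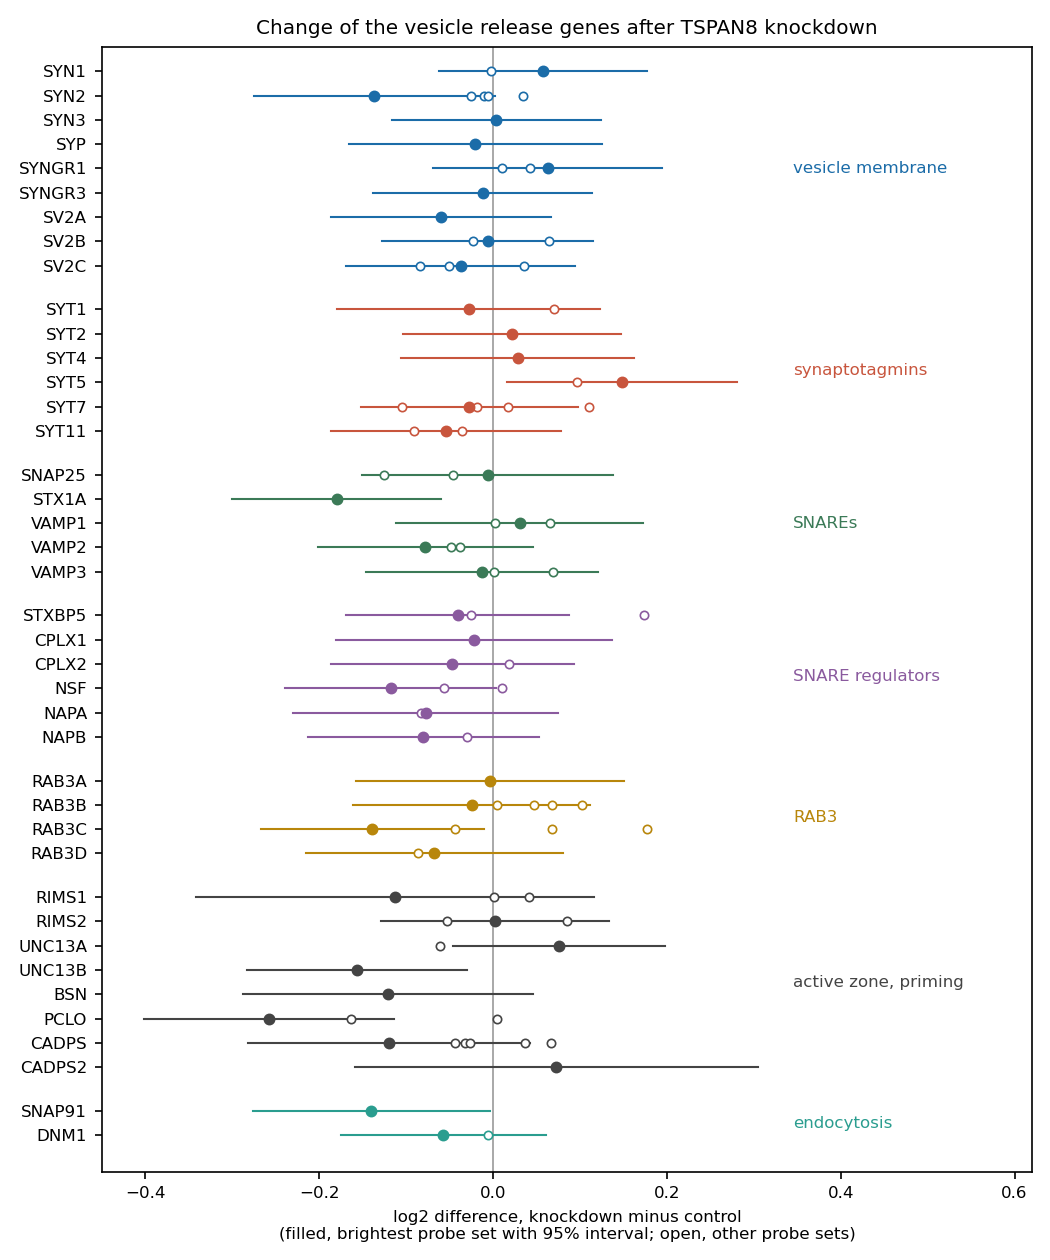
Log2 difference, knockdown minus control (x axis), for the 96 probe sets of the 40 genes. Filled points with lines are brightest probe sets with limma's 95% intervals and open points are the other probe sets. PCLO lies farthest below 0, at -0.26, SYT5 farthest above 0 among the filled points, at 0.15, and the intervals of 34 genes include 0.

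Active zone and priming genes held the member with the largest difference. PCLO encodes piccolo, a giant scaffold protein of the presynaptic active zone. Its brightest probe set had 9.71 and 9.86 on the knockdown arrays, against 10.04 and 10.05 on the control arrays. Both knockdown arrays were lower, replicate 1 the most, while the control arrays nearly coincided. The difference was -0.26 ± 0.062 (SE), with a 95% interval of -0.40 to -0.11, or 83.6% of the control signal (unadjusted p = 0.0034, limma, adjusted p = 0.58). Without knockdown replicate 2 it was -0.33 and passed the threshold (limma, adjusted p = 0.014); without knockdown replicate 1 it was -0.19 and did not (0.50). In the fit without knockdown replicate 2, 1.88% of all probe sets passed as well. Such a fit takes the spread of the remaining knockdown array from the control pair. The second PCLO probe set had 7.88 and 8.05 on the knockdown arrays, against 8.23 and 8.03 on the control arrays (-0.16, with overlap). A last probe set, below the array median, was at 0.0041.

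UNC13B, which encodes Munc13-2, a priming factor that opens syntaxin, had 8.31 and 8.39 on the knockdown arrays, against 8.51 and 8.50 on the control arrays. The groups did not overlap (-0.16 ± 0.055, SE; 95% interval -0.28 to -0.030; unadjusted p = 0.022, limma, adjusted p = 0.61). UNC13A, which encodes Munc13-1, its relative at most excitatory brain synapses, averaged 7.03 ± 0.041 on the knockdown arrays, against 6.95 ± 0.0047 on the control arrays (SD, n = 2 each). Here both knockdown arrays were the higher ones, by 0.076 on average (limma, adjusted p = 0.76), and the second UNC13A probe set was at -0.061. The difference between UNC13A and UNC13B was not tested.

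BSN encodes bassoon, the scaffold partner of piccolo, and its single probe set had 6.37 and 6.53 on the knockdown arrays, against 6.63 and 6.51 on the control arrays. The groups overlapped, at signals around the array median (-0.12, interval -0.29 to 0.046). RIMS1 and RIMS2 encode RIM proteins, which tie RAB3 and calcium channels to the active zone. RIMS1 had 7.85 and 8.09 on the knockdown arrays, against 8.20 and 7.96 on the control arrays, a spread within each group that was larger than the difference of -0.11. RIMS2 had 7.98 and 8.01 on the knockdown arrays, against 7.94 and 8.04 on the control arrays, a difference of 0.0022 that turned negative after median centring. The dense-core vesicle priming factors CADPS (-0.12) and CADPS2 (0.073) had signals below the array median on all 4 arrays, and the 6 CADPS probe sets ran from -0.12 to 0.067.

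Both genes of vesicle retrieval lay below control without overlap, as did 24.2% of all genes and 30.3% of genes above the median signal. SNAP91 encodes AP180, a clathrin assembly protein of nerve terminals. It had 8.59 and 8.56 on the knockdown arrays, against 8.77 and 8.66 on the control arrays (-0.14 ± 0.059, SE; unadjusted p = 0.045, limma, adjusted p = 0.63). The knockdown arrays lay closer together than the control arrays, and without control replicate 1 the difference was -0.082. The unadjusted p was 0.097 after a second quantile normalization, and 0.052 both with a trended robust variance and with dim probe sets left out. DNM1, the neuronal dynamin that pinches off the vesicle, had 8.06 and 8.06 on the knockdown arrays, against 8.10 and 8.13 on the control arrays (-0.057 ± 0.051, SE; limma, adjusted p = 0.83).

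**Figure D3:**
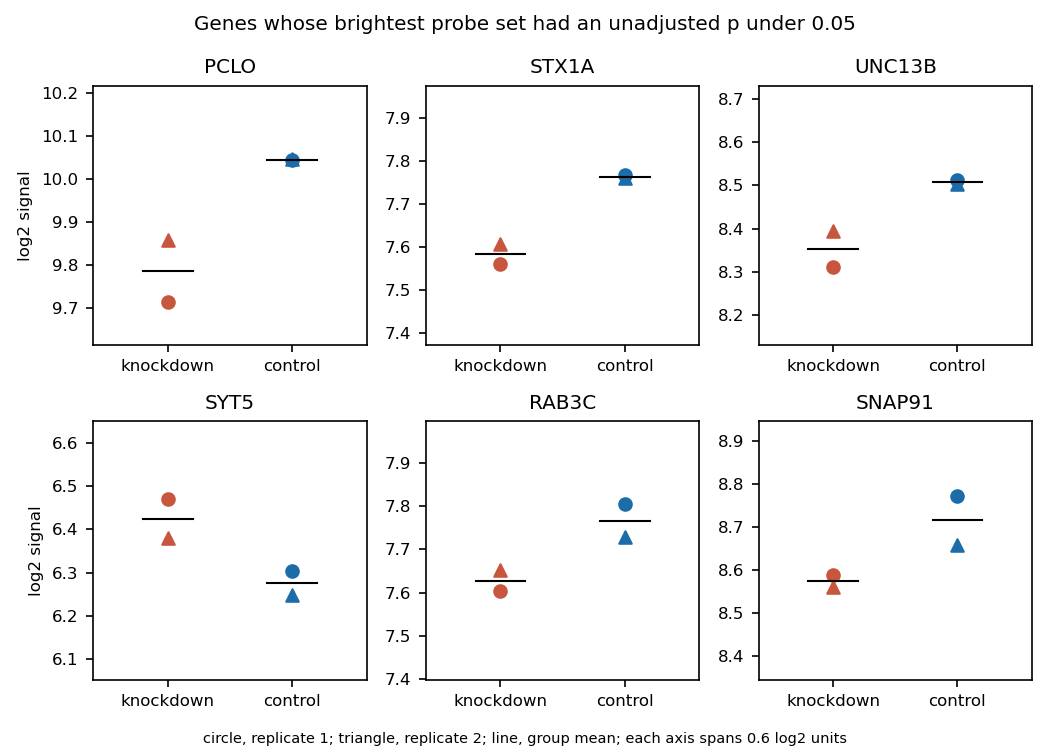
Log2 signal (y axis, 0.6 units in each panel) of the 6 genes whose brightest probe set had an unadjusted p under 0.05, with knockdown arrays on the left and control arrays on the right. Circles are replicate 1, triangles replicate 2 and lines group means. PCLO, STX1A, UNC13B, RAB3C and SNAP91 lie lower on both knockdown arrays and SYT5 higher, by 0.14 to 0.26 on the log2 scale.

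Taking the brightest probe set of each gene, 0 of 40 passed the threshold, where TSPAN8 made up 0.00506% of all genes. At an unadjusted p under 0.05, 5 of the 40 genes (12.5%) were lower and 1 (2.50%) was higher. Over all 19775 genes the shares were 5.57% lower and 2.39% higher. Bright probe sets leaned downward on the whole array: among genes above the median signal 8.02% were lower and 2.26% higher, beside 15.2% (5 of 33) and 0 of 33 members. The groups of arrays did not overlap for 11 genes that were lower (27.5%, against 24.2% of all genes) and 3 that were higher (7.50%, against 14.3%). Below control lay 30 of the 40 genes, where 55.6% of all genes did. Above the median signal it was 26 of 33 members, beside 7824 of 12546 genes. The median over the 40 genes was -0.033, against -0.0094 over all genes. Above the median signal it was -0.041 over the 33 members, against -0.023 over all genes there.

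**Figure D4:**
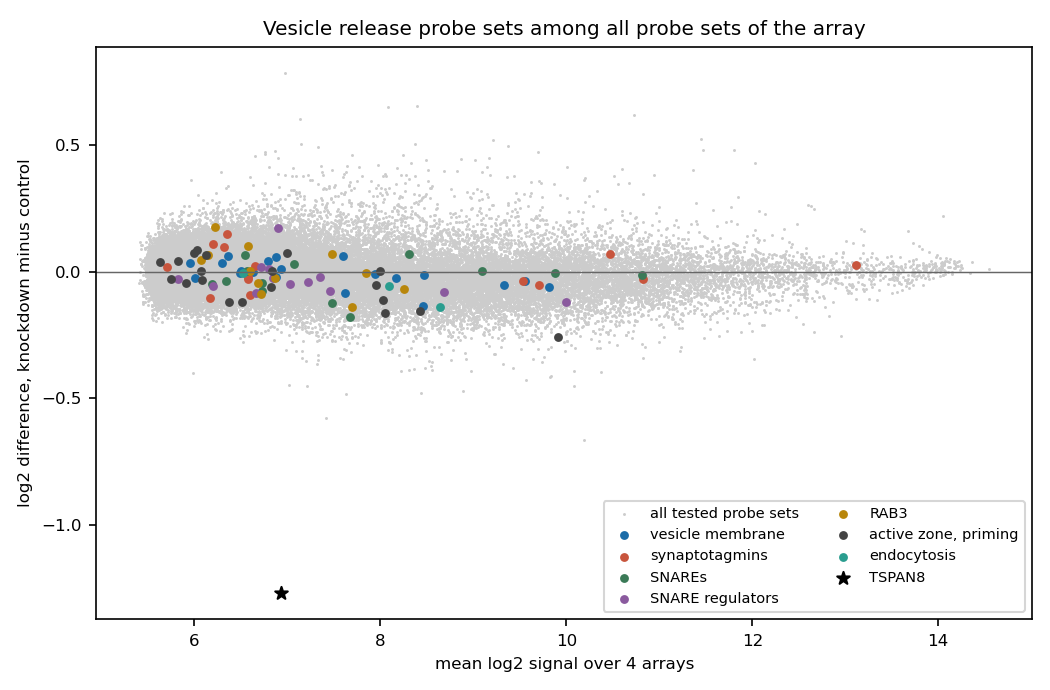
Log2 difference, knockdown minus control (y axis), against the mean log2 signal over the 4 arrays (x axis) for all 54613 tested probe sets (grey), the 96 member probe sets (coloured by role) and TSPAN8 (star). Member probe sets lie between -0.26 and 0.18, within the grey cloud, and TSPAN8 lies apart at -1.27.

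The size of change that the members could still hold was limited by the arrays. The 95% intervals of the 40 brightest probe sets ran from -0.40 at their lowest bound to 0.30 at their highest, with a median standard error of 0.057. Over all 96 member probe sets the highest bound was 0.34. Within a group the arrays differed, in the median gene, by 0.066 between the knockdown arrays and by 0.052 between the control arrays, beside a median absolute difference between groups of 0.057. In 12 of the 40 genes the difference between groups exceeded both within-group distances. The same count over all genes was not made, so this one cannot be read as a result about the members. By the looser measure of groups that did not overlap, 24.2% of all genes were lower and 14.3% higher. Relative to the control mean, knockdown replicates 1 and 2 had member medians of -0.031 and -0.029, against 0.012 and -0.012 for the control arrays. The 2 control values mirror each other by construction. Over all genes the knockdown arrays had medians of -0.011 and -0.013. Over genes above the median signal these were -0.020 and -0.030, beside -0.042 and -0.032 for the members above it.

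Of the 27 genes with several probe sets, 10 had all of them on the same side of control. The same count over all genes with several probe sets was not made, so this one is no result about the members. Some of these probe sets lay below the array medians, among them both of SYT5 and the dimmer one of NAPB. Below control on every probe set were SYT11, SNAP25, VAMP2, NAPA, NAPB, RAB3D and DNM1, and above it SYNGR1, SYT5 and VAMP1, though the brightest SNAP25 probe set changed sides after a second quantile normalization. The other 17 genes had probe sets on both sides. By name, 27 of the 96 probe sets belong to the _s_at, _x_at or _a_at kinds, which can bind several transcripts or related genes.

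Markers of other cell types were measured on the same arrays. Of 14 mesenchymal or fibroblast markers, 11 lay above control, as did 8787 of all 19775 genes. The median shift of these markers from the control mean was 0.23 and 0.042 for knockdown replicates 1 and 2. For the control arrays it was 0.017 and -0.017. Their summed log2 signal was 127.73 to 131.61 on the knockdown arrays and 126.93 to 127.72 on the control arrays, and none was listed at 0. Of the sympathetic neuroblast markers 6 of 8 lay below control, as did 55.6% of all genes. Their summed signals were 87.30 to 87.64 on the knockdown arrays, against 87.97 to 88.04 on the control arrays. DBH had the largest difference (-0.35), GATA3 differed by -0.014, and STMN2 (0.0058) and TH (0.12) lay above control. The 5 Schwann cell or melanocyte markers summed to 34.01 and 34.02 on the knockdown arrays and to 33.76 to 33.90 on the control arrays. Whether these shifts had a part in the values of PCLO, UNC13B or any other member was not tested.

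Other genes of vesicle release, filling and recycling were read from a list of 89, of which 83 had a probe set with 1 symbol. None passed the threshold (limma, smallest adjusted p = 0.60), and at an unadjusted p under 0.05 there were 8 lower (9.64%) and 1 higher (1.20%), beside 12.3% and 1.54% of those above the median signal and the shares for all genes given above. The groups did not overlap for 33 genes that were lower (39.8%, against 24.2% of all genes) and 4 that were higher (4.82%, against 14.3%). Among those above the median signal 43.1% were lower without overlap, against 30.3% of all genes above it. The median was -0.037. By part, the lower ones were 1 of 19 SNARE-related genes, 3 of 16 active zone genes and 4 of 20 endocytosis genes, with 0 of 18 vesicle proteins and transporters and 0 of 10 calcium sensors.

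STX3, a syntaxin of ribbon synapses and polarised cells, had 8.48 and 8.44 on the knockdown arrays, against 8.67 and 8.64 on the control arrays (-0.19 ± 0.052, SE; limma, adjusted p = 0.60). The clathrin adaptor subunit AP2B1 had 9.78 and 9.85 on the knockdown arrays, against 10.05 and 9.98 on the control arrays, and AP2A2, another subunit of the same adaptor, had 9.47 and 9.51, against 9.65 and 9.67. APBA2, a Munc18-binding adaptor, had 9.34 and 9.45 on the knockdown arrays, against 9.60 and 9.58 on the control arrays. None of these 4 had overlapping groups. SYNJ1, the phosphatase that uncoats vesicles, differed by -0.16 and RIMS4, a short RIM, by -0.19. RIMBP2, which links RIM to calcium channels, had 8.07 and 8.45 on the knockdown arrays, against 8.54 and 8.50 on the control arrays, and SYT9, a fast calcium sensor, had 8.64 and 8.41, against 8.35 and 8.29. For RIMBP2 and SYT9 knockdown replicate 1 stood apart from the other 3 arrays, and without knockdown replicate 2 both passed the threshold, at -0.45 and 0.32 (limma, adjusted p = 0.00085 and 0.016), as did 1.88% of all probe sets. Without knockdown replicate 1 they were at -0.072 and 0.087 (limma, adjusted p = 0.88 and 0.83).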

How the data were processed

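The deposited values are log2 signals, 1 per probe set and array, made by the authors with RMA in R 3.0.1, per the submitters' processing notes; settings and a genome build are not given in the sources used here. Per the labels' protocols, biotin-labelled target was prepared from 100 ng of total RNA. Of 54675 probe sets, 62 AFFX controls were left out. Symbols came from the platform annotation (1 symbol for 41091 tested probe sets, several for 1801, none listed for 11721), and all 96 member probe sets matched a current RefSeq symbol by gene identifier. The knockdown arrays were set against the control arrays in limma 3.58.1 (R 4.3.3; lmFit, eBayes) over 54613 probe sets and all 4 arrays without covariates, with two-sided p-values, Benjamini-Hochberg adjustment and a threshold of 0.05; there was 1 comparison. The fit was tested on simulated data. Values with ± SE are log2 differences, knockdown minus control. RMA brings the arrays to like distributions and compresses changes near background, and the number of arrays limits the precision. Members and gene lists were chosen with earlier results of these data known. The rule gave in full the genes whose brightest probe set had an unadjusted p under 0.05, any with a change of at least 0.3, and in each role the gene with the smallest p and the one with the highest control signal, with 8 other pathway genes by p; further members were given where their values add to the description, chosen after their values were seen. Alternatives were filters on dim or cross-binding probe sets, other scalings, variance models, array weights, a replicate block, other summaries per gene and leaving out each array. Scanner files and scan dates were not used here. Figures were made with matplotlib 3.10.9 under Python 3.11.15.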

Additional observations from a re-analysis of the deposited data

How the results depend on the processing

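The comparisons rest on 2 arrays a group, and probe sets near the array median cannot be told from background here. With all 4 arrays, no member probe set passed the threshold under any of the alternatives run. Leaving out arrays gave 0 to 1 member probe sets past it (PCLO, without knockdown replicate 2), 0 to 2 other pathway genes and 1 to 1026 probe sets in all, with the upper end again without knockdown replicate 2 and 25 without knockdown replicate 1. At an unadjusted p under 0.05 these fits gave 4 to 9 lower and 1 to 5 higher member probe sets. With all 4 arrays, the number of lower ones was 8 after median centring (8.33%, against 5.76% of all probe sets in that fit). After a second quantile normalization it was 3 (3.12%, against 3.59%). The higher ones numbered 1 of the 60 member probe sets above the median signal (1.67%, against 3.88%). Without cross-binding kinds they numbered 1 of 69 (1.45%, against 3.94%). The members' median was -0.046 after median centring, -0.017 with all probe sets of a gene averaged and, in a check added after seeing the data, -0.057 within replicate number 1 and -0.036 within number 2. With the replicate number as a block, TSPAN8 stayed at -1.27 (adjusted p = 0.16, limma) and the array held 0 probe sets past the threshold; deviations of equal numbers correlated at 0.051 and nothing in the labels pairs them, and the block changed no other adjusted call among members or named pathway genes. Before adjustment, the block in limma moved RAB3C (0.061) and RIMBP2 (0.063) above 0.05 and SYN2 (0.041) below it, each at an adjusted p of 0.71. For these shifts the cause was not tested. Of 263 member changes recomputed with all arrays, 7 turned sign: after a second quantile normalization RAB3A (0.014), SNAP25 (0.027), SYN3 (-0.0077), SYNGR3 (0.015) and VAMP3 (0.0095), and after median centring RIMS2 (-0.012) and SYN3 (-0.0098). With 1 array left out, 28 of 160 turned sign, in genes whose ranges span 0: CADPS2 (-0.10 to 0.24), CPLX1 (-0.11 to 0.070), CPLX2 (-0.11 to 0.018), NAPA (-0.16 to 0.00046), RAB3A (-0.088 to 0.081), RAB3B (-0.079 to 0.030), RIMS1 (-0.23 to 0.0064), RIMS2 (-0.047 to 0.051), SNAP25 (-0.078 to 0.066), STXBP5 (-0.085 to 0.0038), SV2B (-0.025 to 0.013), SV2C (-0.089 to 0.015), SYN3 (-0.021 to 0.029), SYNGR3 (-0.051 to 0.027), SYP (-0.091 to 0.051), SYT1 (-0.10 to 0.048), SYT2 (-0.016 to 0.060), SYT4 (-0.026 to 0.083), SYT7 (-0.055 to 0.00058), VAMP1 (-0.035 to 0.10) and VAMP3 (-0.063 to 0.038). The other 19 members kept their sign under every alternative run, but 12 of them moved by over 1.5 times with 1 array left out, among them RAB3D (-0.13 to -0.0026), SYT11 (-0.10 to -0.0050), CADPS (-0.21 to -0.028) and BSN (-0.20 to -0.042).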
